A study of Mus musculus with 9 samples.

Results

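Integrins are the adhesion receptors of blood cells, and 10 integrin genes expressed in hematopoietic progenitors were followed across 3 groups of sorted mouse bone marrow cells. They are 7 genes for α subunits (Itga4, Itga5, Itga6, Itga9, Itgal, Itgam and Itgav) and 3 for β subunits (Itgb1, Itgb2 and Itgb7), taken by name. Every probe set, a group of short probes read as 1 measurement, whose only annotated symbol was 1 of these genes was used, which gave 30 probe sets of the 45101 on the array and 10 genes of the 18193 measured.

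Each integrin is a pair of 1 α and 1 β chain that crosses the cell membrane and binds matrix proteins or receptors on other cells. The pair is held inactive until talin and kindlin bind the β tail downstream of the small GTPase RAP1 (inside-out activation), and the bound receptor then signals through kinases of the SRC and FAK families (outside-in signalling). In bone marrow, α4β1 binds VCAM1 and fibronectin on stromal cells and helps to keep stem and progenitor cells in place, while the leukocyte integrins αLβ2 and αMβ2 serve mature myeloid and lymphoid cells in adhesion to endothelium and in phagocytosis.

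The NcstnKO GMP group held granulocyte-monocyte progenitors, the committed myeloid precursors, sorted as lineage-negative, cKit+, Sca1-, CD34+ and FcγRII/III+ cells from mice of genotype Ncstn flox/flox Mx1-cre+. The WT GMP group held the same sorted population from littermates of genotype Ncstn flox/flox without the transgene. The WT LSK group held lineage-negative, cKit+, Sca1+ cells, the fraction with stem and multipotent progenitor cells, from Ncstn flox/flox mice. Nicastrin, the product of Ncstn, belongs to the γ-secretase complex that cuts Notch receptors inside the membrane. All 3 groups received 3 injections of polyIC, an inducer of interferon, at 20 mcg per g of body weight on alternate days, the first at the age of 14 days. Analysis followed after 4 weeks, at the age of 6 weeks. Mx1-Cre is switched on by interferon and is not limited to 1 cell type, so loss of nicastrin outside the sorted cells and any effect of Cre itself cannot be told apart from loss of nicastrin in GMP. Each group had 3 arrays made from 5 ng of amplified total RNA. The labels do not say whether the arrays of a group came from separate mice, so the p-values measure the spread between these samples only.

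Ncstn read 7.76 to 7.79 on the log2 intensity scale in NcstnKO GMP, 9.25 to 9.31 in WT GMP and 8.99 to 9.13 in WT LSK, so the 3 knockout arrays lay below all others. Median intensity was 65.4 to 67.9 in NcstnKO GMP, 67.3 to 68.6 in WT GMP and 98.3 to 103 in WT LSK, so the median was higher on the LSK arrays, and comparisons with LSK are also given after rescaling. Of 11 GMP markers, 8 were higher and 2 lower in WT GMP than in WT LSK, and 7 of 7 measured LSK markers were lower. The sex in the labels went against Xist and the Y-linked Eif2s3y on 4 arrays, 2 of NcstnKO GMP and 2 of WT GMP. By these transcripts, 3 NcstnKO GMP arrays, 1 WT GMP array and 1 WT LSK array came from females. The log2 ratio of the 3' to the 5' Actb control probe set was 0.809 to 1.06 in NcstnKO GMP, 0.500 to 0.705 in WT GMP and 0.663 to 0.870 in WT LSK. A probe set is called dim or at background here relative to the 95th percentile of 27 unspiked bacterial control probe sets, which lay at 4.30 to 4.57 over the arrays.

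Promoter sequences were available for 7 of the 10 genes in RefSeq tables of the GRCm38.p6 build, and Itga6, Itgal and Itgb2 were not matched. Windows of 250 bases before to 50 bases after the start are shown for 3 of those matched: Itga4 and Itga5, the members called between the GMP groups, and Itgam, which held the most motif matches. Itga4 lies on the plus strand at chr2:79255176-79255475, Itga5 on the minus strand at chr15:103366742-103367041 and Itgam on the plus strand at chr7:128062390-128062689. Capitals mark matches to the motif searched, TGTGGT (RUNX) in Itga4 and GAGGAA (PU.1) in the other two, on either strand.
Itga4: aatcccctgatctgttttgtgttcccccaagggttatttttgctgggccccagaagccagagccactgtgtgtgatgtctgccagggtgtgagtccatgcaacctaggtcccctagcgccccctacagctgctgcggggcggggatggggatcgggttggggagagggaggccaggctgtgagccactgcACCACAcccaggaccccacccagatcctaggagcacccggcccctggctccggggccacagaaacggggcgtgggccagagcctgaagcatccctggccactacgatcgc
Itga5: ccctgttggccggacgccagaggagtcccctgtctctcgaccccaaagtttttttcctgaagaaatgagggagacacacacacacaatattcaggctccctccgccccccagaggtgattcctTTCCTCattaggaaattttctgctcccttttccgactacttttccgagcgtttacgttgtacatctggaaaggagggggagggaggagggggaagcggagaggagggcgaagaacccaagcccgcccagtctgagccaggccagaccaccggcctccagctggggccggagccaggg
Itgam: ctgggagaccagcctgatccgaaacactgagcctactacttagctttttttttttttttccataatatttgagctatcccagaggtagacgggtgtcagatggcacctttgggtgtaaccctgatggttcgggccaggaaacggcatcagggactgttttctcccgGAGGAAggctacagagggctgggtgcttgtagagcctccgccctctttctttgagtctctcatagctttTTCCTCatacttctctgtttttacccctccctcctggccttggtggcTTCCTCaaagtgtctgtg

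The RUNX letters began 60 bases before the start of Itga4 on the minus strand, and no other member promoter held them, while 16.8% of 32851 promoters of the same length did. The PU.1 letters occurred in 5 of the 7 member promoters (Itga5, Itgam, Itgav, Itgb1 and Itgb7), 3 times in Itgam, and in 28.3% of all promoters. The letters TGGGAA of RBPJ, the DNA-binding partner of Notch, were in 0 of the 7 windows and in 25.6% of all promoters, and AGATAA of the GATA factors in 0 of the 7 and 11.2%. The 4 motifs do not overlap each other in these windows, and a match is a run of letters and not a measured binding site.

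NcstnKO GMP had less Itga4 and Itga5 transcript than WT GMP, by 0.62 and 0.54 on the log2 scale, and no member was significantly higher. WT GMP had less Itgb2, Itgam, Itga9 and Itga4 than WT LSK, with a difference of 1.69 for Itgb2. NcstnKO GMP differed from WT LSK in those 4 and also in Itga5 and Itgal. By the brightest probe sets, both rescalings of the arrays given below kept the lower call of WT GMP for Itgb2 alone. They kept that of NcstnKO GMP against WT LSK for Itga4, Itga5 and Itgb2. The other 2 probe sets of Itga9 stayed called lower than in WT LSK in both GMP groups under both rescalings. Every adjusted p is from limma, with Benjamini-Hochberg adjustment over all 18193 genes on the array unless a probe set is named, and a gene was called where it was under 0.05. In bulk samples, fewer cells that make a transcript and less transcript per cell cannot be told apart.

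Of the 10 members, 2 were called between NcstnKO GMP and WT GMP, both lower, beside 5.7% of all genes called and 3.26% called lower. The groups did not overlap for 3 members, all lower in NcstnKO GMP, beside 31.9% of all genes. The median log2 fold change of the members was -0.14, and that of all genes 0.06. Between WT GMP and WT LSK, 4 of 10 were called, all lower, where 38% of all genes were called and 30.5% called lower, so the members' share was close to that of the array. There 7 members did not overlap, 6 of them lower in WT GMP, beside 54.6% of all genes, and the medians were -0.39 for members and -0.18 for all genes. Between NcstnKO GMP and WT LSK, 6 of 10 were called, all lower, beside 46.8% of all genes called and 32.3% called lower. In that comparison 8 members did not overlap, beside 56.4% of all genes, and the medians were -0.69 and -0.12. The 3 comparisons share arrays, so they are not independent of each other.

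**Figure D1:**
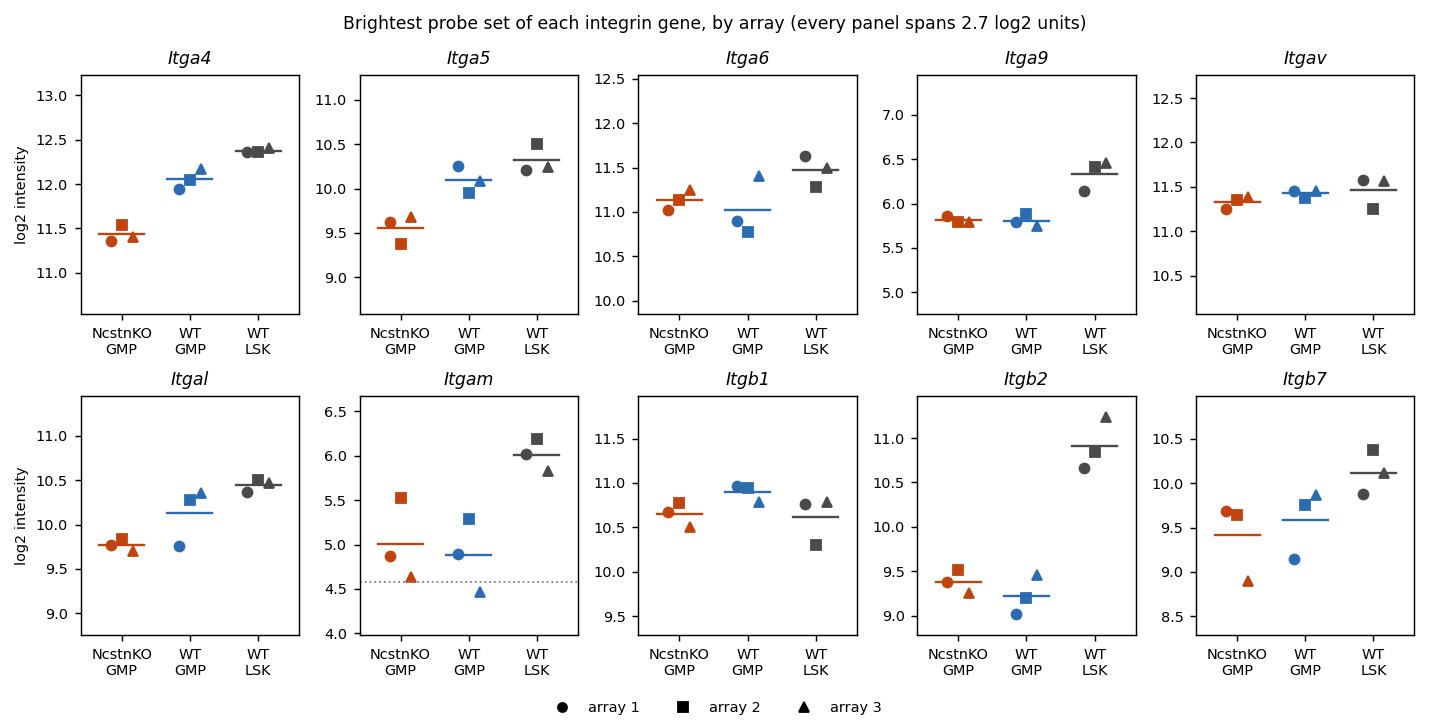
Log2 intensity of the brightest probe set of each integrin gene on each of the 9 arrays (points; symbols give the array number and bars the group mean), with NcstnKO GMP, WT GMP and WT LSK from left to right and every panel spanning the same log2 range. The dotted line in the Itgam panel is the highest background limit of the arrays, 4.57. The 3 groups are separate for Itga4 and overlap for Itgav, and Itgb2 separates LSK from both GMP groups.

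Itga4 encodes α4, the chain that pairs with β1 for VCAM1 and fibronectin and with β7 for MAdCAM1. Its brightest probe set (1436037_at) read 11.36, 11.53 and 11.41 in NcstnKO GMP, 11.94, 12.04 and 12.17 in WT GMP, and 12.36, 12.37 and 12.40 in WT LSK. The 3 groups did not overlap and stood in the order NcstnKO GMP, WT GMP, WT LSK, with each neighbouring pair past the threshold. The log2 fold change was -0.62 (SE 0.089, 95% interval -0.82 to -0.41, adjusted p 0.0194) for NcstnKO GMP against WT GMP and -0.33 (SE 0.089, adjusted p 0.0206) for WT GMP against WT LSK. Between the ends of this order it was -0.94 (adjusted p 8.9e-05).

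All 5 probe sets of Itga4 were lower in NcstnKO GMP than in WT GMP, by -0.83 to -0.50, and 2 of them passed adjustment over the 45037 probe sets tested (adjusted p 0.0328 for both). The next brightest (1456498_at) read 8.97, 9.28 and 8.97 in NcstnKO GMP against 9.76, 9.996 and 9.96 in WT GMP, again without overlap. Between WT GMP and WT LSK the 5 probe sets of Itga4 disagreed, running from -0.69 to 0.22, with 3 called lower. The sign of the difference between the GMP groups was thus the same in all 5 probe sets, and that between WT GMP and WT LSK was not.

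The Itga4 call between the 2 GMP groups was sensitive to single arrays and to sex. Without NcstnKO GMP array 3 the adjusted p was 0.0514, without WT GMP array 3 it was 0.0952, and in a fit of the 2 GMP groups alone it was 0.0517. With sex as a covariate the fold change was -0.66 by the labels (adjusted p 0.0724) and -0.55 by the transcripts (adjusted p 0.0941). Without the 4 arrays whose sex labels disagree, which leaves 1 array in each GMP group, it was -0.58 (adjusted p 0.374), and among the arrays female by transcripts it was -0.51 (adjusted p 0.484, 3 NcstnKO GMP arrays against 1 WT GMP array). The size therefore stayed between -0.67 and -0.51 over all settings tried, while the call was lost in those 7.

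The smaller Itga4 difference between WT GMP and WT LSK also hung on single arrays. Its adjusted p was 0.0726 without WT GMP array 1, 0.0592 without WT GMP array 2, 0.0561 without WT LSK array 3 and 0.101 with the labelled sex as a covariate. Without the 4 arrays whose sex labels disagree it was -0.44 (adjusted p 0.0982). The difference between NcstnKO GMP and WT LSK stayed called in all 20 other settings. It was -1.01 without the 4 arrays (1 NcstnKO GMP array left) and -0.92 among arrays female by transcripts (1 WT LSK array).

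Itga5 encodes α5, which with β1 forms the main fibronectin receptor. Its brightest probe set (1423267_s_at) read 9.62, 9.37 and 9.68 in NcstnKO GMP, 10.26, 9.95 and 10.08 in WT GMP, and 10.21, 10.5 and 10.24 in WT LSK. NcstnKO GMP lay below both WT groups on every array, and the WT groups overlapped each other. The log2 fold change was -0.54 (SE 0.13, adjusted p 0.0458) against WT GMP and -0.76 (SE 0.13, adjusted p 0.00141) against WT LSK, and WT GMP differed from WT LSK by -0.22 (adjusted p 0.206). Of the 4 Itga5 probe sets, 3 were lower and 1 was higher by 0.09 in NcstnKO GMP than in WT GMP, and none passed adjustment over the 45037 probe sets (adjusted p 0.0724 for the brightest). The call stood in 5 of 20 other settings, with adjusted p from 0.0257 to 0.158. Averaging the 4 probe sets gave -0.31 (adjusted p 0.157), the fit without the 4 arrays whose sex labels disagree -0.64 (adjusted p 0.44), and the arrays female by transcripts alone -0.70 (adjusted p 0.441). Without any 1 of the 6 GMP arrays the adjusted p was over 0.05, at 0.0757 to 0.143. Against WT LSK the call was lost without the 4 arrays (-0.70, adjusted p 0.0589) and among the arrays female by transcripts (-0.65, adjusted p 0.0735).

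Several marker lists moved between the same 2 GMP groups as Itga4 and Itga5. The summed linear level of 10 erythroid markers was 7349 to 11469 in NcstnKO GMP, 17023 to 29973 in WT GMP and 36904 to 45379 in WT LSK, with Hba-a1 at background in all 3 groups. Of these markers, 6 of 10 were called lower in NcstnKO GMP than in WT GMP and 0 higher. The sum of 8 megakaryocyte markers was 3458 to 4880 in NcstnKO GMP, 4163 to 6384 in WT GMP and 6670 to 10583 in WT LSK, with 2 of 8 called lower between the GMP groups and Gp6 at background in both. Among 9 monocyte and macrophage markers 3 were lower, with sums of 8695 to 11435 in NcstnKO GMP and 9960 to 12170 in WT GMP. Late neutrophil markers had 1 of 9 higher, T and NK cell markers 1 of 7 lower, and mast cell, B cell and stromal markers 0 called in either direction. The part of these markers and of the Actb ratio in the Itga4 and Itga5 results was not tested.

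The β partners of α4 and α5 were not called between the GMP groups. Itgb1, the β1 chain shared by most matrix-binding integrins of progenitors, read 10.67, 10.77 and 10.5 in NcstnKO GMP, 10.96, 10.94 and 10.79 in WT GMP, and 10.77, 10.31 and 10.79 in WT LSK. NcstnKO GMP lay just below WT GMP, with a gap of 0.015 between the nearest arrays, while WT LSK overlapped NcstnKO GMP and all but touched WT GMP. Between the GMP groups the log2 fold change was -0.25 (SE 0.14, 95% interval -0.57 to 0.08, adjusted p 0.323). WT GMP exceeded WT LSK by 0.28 (adjusted p 0.158), which made Itgb1 the lone member with a positive value in that comparison. Its 6 probe sets did not read alike. One (1427771_x_at) was called higher in WT GMP than in WT LSK by 0.48 (adjusted p 0.0187), and another (1438119_at) was at background on all 9 arrays.

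Itgb7, the β7 chain that pairs with α4 for gut homing, read 9.68, 9.64 and 8.90 in NcstnKO GMP, 9.14, 9.75 and 9.86 in WT GMP, and 9.88, 10.37 and 10.11 in WT LSK. The GMP groups overlapped, with 1 low array in each, and WT LSK lay above both. Itgb7 differed by -0.18 for NcstnKO GMP against WT GMP (95% interval -0.77 to 0.41, adjusted p 0.718), -0.53 for WT GMP against WT LSK (adjusted p 0.137) and -0.71 for NcstnKO GMP against WT LSK (adjusted p 0.0508). None of these passed, and the spread within the GMP groups (SD 0.44 in NcstnKO GMP and 0.39 in WT GMP) was the widest among the members apart from Itgam. For NcstnKO GMP against WT LSK, Itgb7 was called lower in 5 of 20 other settings, with adjusted p from 0.0347 to 0.307.

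**Figure D2:**
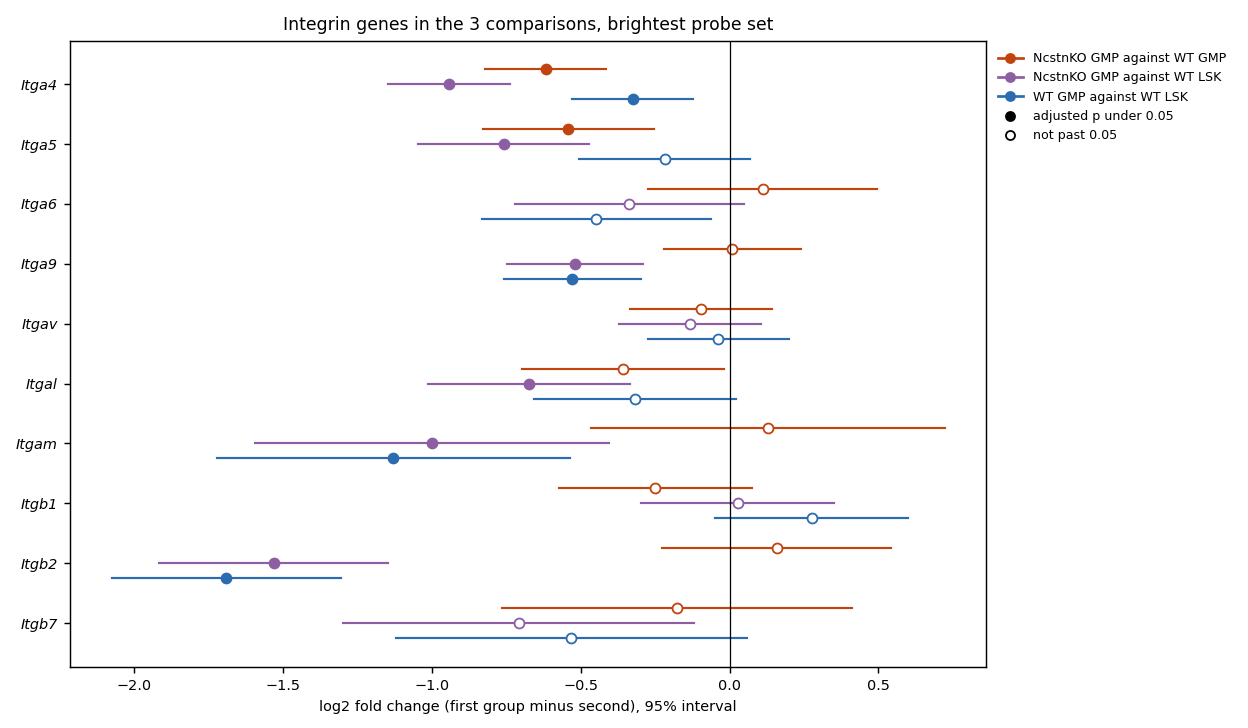
Log2 fold change of each integrin gene with its 95% interval in the 3 comparisons (colours), from the brightest probe set; filled points passed an adjusted p of 0.05 over all genes. Itga4 is filled in all 3 comparisons, Itgb2, Itgam and Itga9 in both comparisons with WT LSK, and Itga5 in both comparisons of NcstnKO GMP.

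Itga6 and Itgav were not called in any of the 3 comparisons. Itga6 encodes α6, a laminin receptor chain that is used to isolate stem cells, and read 11.02, 11.14 and 11.25 in NcstnKO GMP, 10.89, 10.77 and 11.40 in WT GMP, and 11.63, 11.29 and 11.50 in WT LSK. WT GMP array 3 lay within the LSK range, and the log2 fold change was 0.11 for NcstnKO GMP against WT GMP (95% interval -0.27 to 0.49, adjusted p 0.727) and -0.45 for WT GMP against WT LSK (adjusted p 0.0655). Without that array the difference between WT GMP and WT LSK was called, at -0.64 (adjusted p 0.00961). Itgav, the αv chain that binds vitronectin and other RGD proteins, read 11.25 to 11.39 in NcstnKO GMP, 11.38 to 11.46 in WT GMP and 11.25 to 11.58 in WT LSK. The 3 groups overlapped, and the 95% intervals of its differences were -0.33 to 0.14 for NcstnKO GMP against WT GMP and -0.27 to 0.20 for WT GMP against WT LSK. Of its 4 dimmer probe sets, 1 (1432296_a_at) was called lower in WT GMP than in WT LSK, by -0.62 (adjusted p 0.0301).

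Itga9 encodes α9, which with β1 binds tenascin, osteopontin and VCAM1. Its brightest probe set (1420860_at) read 5.87, 5.80 and 5.79 in NcstnKO GMP, 5.79, 5.88 and 5.75 in WT GMP, and 6.14, 6.41 and 6.46 in WT LSK. The GMP groups were superimposed and WT LSK lay above both. Itga9 differed by 0.01 for NcstnKO GMP against WT GMP (adjusted p 0.967), -0.53 for WT GMP against WT LSK (SE 0.10, adjusted p 0.00393) and -0.52 for NcstnKO GMP against WT LSK (adjusted p 0.00305). Neither difference from LSK was called without the 4 arrays whose sex labels disagree (adjusted p 0.13 and 0.143).

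The other 2 Itga9 probe sets were dimmer over the 9 arrays but brighter in WT LSK (means 6.87 and 7.36, against 6.34). They gave a much larger difference from LSK. One (1450029_s_at) read 4.54, 4.13 and 4.16 in NcstnKO GMP, 4.71, 5.12 and 4.90 in WT GMP, and 6.43, 7.13 and 7.04 in WT LSK. The other (1460285_at) read 4.46, 4.10 and 3.61 in NcstnKO GMP, 4.09, 4.89 and 4.82 in WT GMP, and 7.28, 7.93 and 6.86 in WT LSK. Both lay near background in GMP and well above it in LSK. WT GMP was lower than WT LSK by -1.96 (adjusted p 0.000306) and -2.76 (adjusted p 0.000551) on the log2 scale. NcstnKO GMP was taken as at background for both, so it was at least 5.17-fold and at least 7.39-fold lower than WT LSK, against the higher of the background limit and the signal on each array. Neither passed between NcstnKO GMP and WT GMP, where the bounds were at least 1.33-fold and at least 1.09-fold lower (adjusted p 0.143 and 0.412).

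Of the 3 leukocyte integrin genes, Itgb2 and Itgam were called lower in WT GMP than in WT LSK and Itgal was not. Itgb2, the β2 chain common to αL and αM, read 9.38, 9.51 and 9.26 in NcstnKO GMP, 9.01, 9.20 and 9.46 in WT GMP, and 10.66, 10.84 and 11.24 in WT LSK. The GMP groups overlapped, and the lowest LSK array lay 1.15 above the highest GMP array. The log2 fold change was 0.16 for NcstnKO GMP against WT GMP (SE 0.17, 95% interval -0.23 to 0.54, adjusted p 0.607), -1.69 for WT GMP against WT LSK (SE 0.17, adjusted p 0.000177) and -1.53 for NcstnKO GMP against WT LSK (adjusted p 0.000173). Itgb2 has 1 probe set (1450678_at), and its difference between WT GMP and WT LSK was called in 20 of 20 other settings, from -1.82 to -1.34. That difference was -1.90 without the 4 arrays whose sex labels disagree, which leaves 1 WT GMP array. Among the arrays female by transcripts, with 1 WT GMP and 1 WT LSK array, it was -1.64.

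Itgal encodes αL, the partner of β2 in LFA-1, the receptor for ICAM1. It read 9.77, 9.84 and 9.70 in NcstnKO GMP, 9.76, 10.27 and 10.36 in WT GMP, and 10.37, 10.5 and 10.47 in WT LSK. NcstnKO GMP overlapped WT GMP through WT GMP array 1 and lay below WT LSK. The log2 fold change was -0.36 for NcstnKO GMP against WT GMP (adjusted p 0.183), -0.32 for WT GMP against WT LSK (adjusted p 0.126) and -0.68 for NcstnKO GMP against WT LSK (SE 0.15, adjusted p 0.00576). Without WT GMP array 1 the difference between the GMP groups was -0.54 (adjusted p 0.0381), and among arrays female by transcripts, where that array is the lone WT GMP array, it was 0.01 (adjusted p 0.982). Without that array WT GMP differed from WT LSK by -0.13 (adjusted p 0.331). Without the 4 arrays whose sex labels disagree, 1 array was left in each GMP group, for WT GMP again array 1. Itgal then differed from WT LSK by -0.67 in NcstnKO GMP and by -0.69 in WT GMP. Among the arrays female by transcripts, with 1 WT GMP and 1 WT LSK array, neither difference was called (-0.60 and -0.61).

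Itgam encodes αM, the partner of β2 in Mac-1 (CD11b), a marker of mature myeloid cells. Its 1 probe set (1422046_at) read 4.88, 5.52 and 4.63 in NcstnKO GMP, 4.89, 5.28 and 4.47 in WT GMP, and 6.02, 6.19 and 5.83 in WT LSK. The GMP arrays lay close to the background limits and overlapped each other, and WT LSK lay above them. Itgam differed by 0.13 for NcstnKO GMP against WT GMP (95% interval -0.46 to 0.72, adjusted p 0.8), -1.13 for WT GMP against WT LSK (SE 0.26, adjusted p 0.00968) and -1.0 for NcstnKO GMP against WT LSK (adjusted p 0.0127). Without the 4 arrays whose sex labels disagree, 1 array was left in each GMP group. Itgam then differed from WT LSK by -1.12 in WT GMP and by -1.13 in NcstnKO GMP. Among arrays female by transcripts, with 1 WT GMP and 1 WT LSK array, neither difference was called (-1.12 and -1.01).

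Marker lists of other blood cells differed between GMP and LSK samples in both directions. The summed level of 9 late neutrophil markers was 46659 to 52906 in NcstnKO GMP, 33003 to 43500 in WT GMP and 66665 to 87966 in WT LSK, and 8 of 9 were lower in WT GMP than in WT LSK. The sum of 7 B cell markers was 2704 to 6331 in NcstnKO GMP, 2818 to 3828 in WT GMP and 7536 to 12796 in WT LSK, with 6 of 7 lower in WT GMP than in WT LSK. Sums ran the other way for 9 monocyte and macrophage markers, at 9960 to 12170 in WT GMP and 5764 to 8367 in WT LSK, with 2 called higher and 2 lower. They did so too for 9 mast cell, basophil and eosinophil markers (41175 to 49605 in WT GMP and 11495 to 17648 in WT LSK), of which 8 were called higher. The T and NK cell sum was 9240 to 10280 in WT GMP and 5037 to 7396 in WT LSK, although 4 of its 7 markers were called lower and 1 higher. Their part in the Itgb2, Itgal and Itgam results was not tested.

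Counted over probe sets, 2 of the 30 were called lower and 0 higher between NcstnKO GMP and WT GMP, beside 1.75% of all probe sets called. Both belonged to Itga4, and 20 of the 30 had a negative value. Between WT GMP and WT LSK 10 were called lower and 1 higher, beside 34.9% of all probe sets called, and between NcstnKO GMP and WT LSK 15 were called lower and 0 higher, beside 43.5%. Probe sets of 1 gene share transcripts and are not independent of each other.

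**Figure D3:**
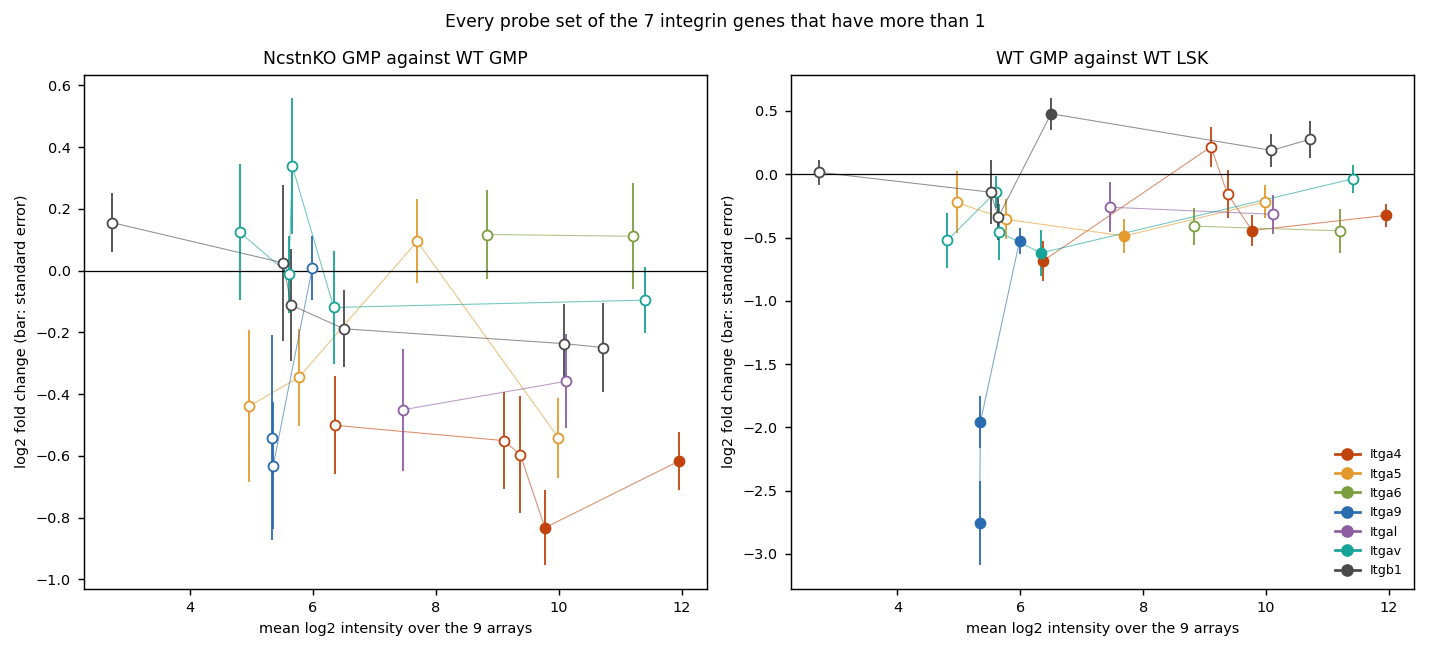
Log2 fold change (points, bars for the standard error) of every probe set of the 7 integrin genes with more than 1, against its mean log2 intensity, for NcstnKO GMP against WT GMP and for WT GMP against WT LSK; filled points passed adjustment over all probe sets. The 5 Itga4 probe sets all lie below 0 in the first comparison, and the 3 Itga9 probe sets spread from -0.53 to -2.76 in the second.

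WT GMP was set against WT LSK again after rescaling, since the LSK arrays have the higher medians. As deposited, 1360 genes were higher and 5550 lower in WT GMP. Quantile normalization over all 9 arrays gave 3607 higher and 2797 lower genes, and centring each array on its 75th percentile 5948 higher and 2610 lower. The median of all genes moved to 0.05 and 0.17. Itgb2 was called lower under all 3 scalings (-1.69 in the deposited values, -1.48 with quantile normalization and -1.34 with centring). Itgam was called lower as deposited and after centring (-0.78) but not after quantile normalization (-0.66, adjusted p 0.0897). Itga4 was called lower after quantile normalization (-0.32) and was at 0.02 after centring, and the brightest Itga9 probe set was at 0.00 after quantile normalization and at -0.18 after centring, with neither called. The 2 dimmer Itga9 probe sets were called under both rescalings, at -1.42 and -2.23 after quantile normalization and -1.61 and -2.41 after centring. Itgb1 was called higher in WT GMP after both rescalings (0.45 and 0.62), and Itgav after centring (0.31, adjusted p 0.0438).

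For NcstnKO GMP against WT LSK, 2648 genes were higher and 5875 lower as deposited. The split was 5439 and 3810 with quantile normalization, then 7959 and 3205 with centring. Itga4, Itga5 and Itgb2 were called lower under all 3 scalings, Itgal in the deposited and quantile normalized values, and Itgb1 was called higher after centring. Itgam (-0.56 with quantile normalization and -0.62 with centring) and the brightest Itga9 probe set (0.03 and -0.14) were called under neither rescaling. The 2 dimmer Itga9 probe sets were called lower under both. For NcstnKO GMP against WT GMP the splits were 443 higher and 594 lower as deposited, 390 and 412 with quantile normalization, and 621 and 494 with centring. Itga4 kept its call at -0.58 after both, and Itga5 had adjusted p 0.0613 after quantile normalization and 0.049 after centring.

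**Figure D4:**
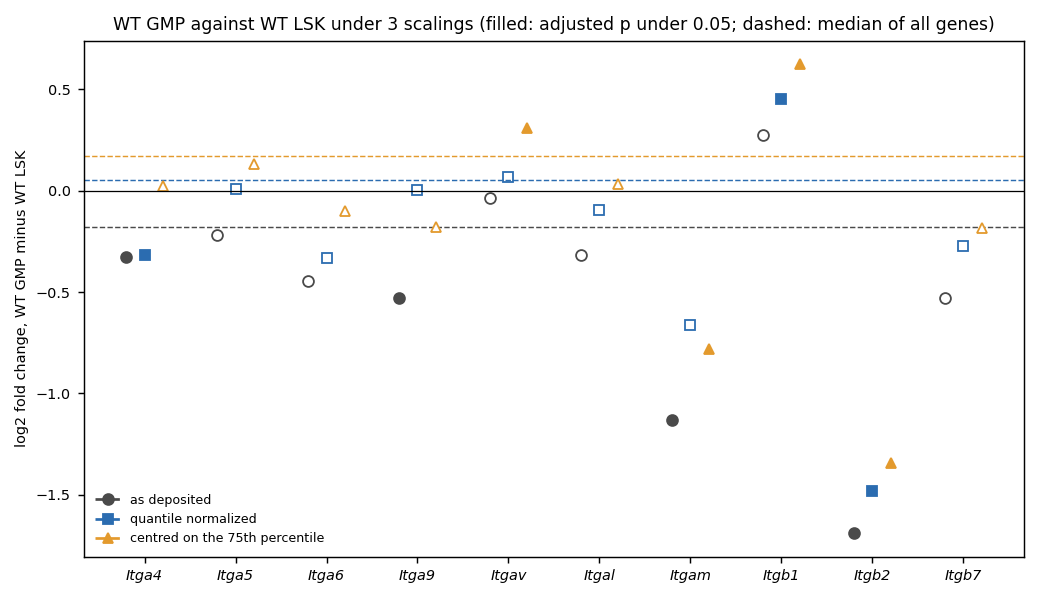
Log2 fold change of each integrin gene for WT GMP against WT LSK as deposited (circles), quantile normalized (squares) and centred on each array's 75th percentile (triangles); filled symbols passed an adjusted p of 0.05, and dashed lines are the medians of all genes. Itgb2 is filled in all 3, and Itgb1 is filled after both rescalings.

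Genes that act with the integrins were read from 7 lists, of which 113 genes were measured. Between NcstnKO GMP and WT GMP 3 were called higher and 7 lower, where 5.7% of all genes were called. With sex as a covariate, by the labels or the transcripts, 0 of the 113 and 2 of all 18193 genes were called. A fit of the 2 GMP groups alone called 0 of the 113 and 6 of all genes. The folds of the 10 kept their sign in these fits, and Itgae, for example, was 1.26 with the labelled sex and 1.43 with that by transcripts. All 10 were also lost without WT GMP array 3 (adjusted p 0.0952 to 0.143) and without NcstnKO GMP array 3 (adjusted p 0.0501 to 0.107). Calls over all genes fell to 2 and 145 in these fits, from 1037. The lists are described by their counts, and no list was tested.

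Among 18 measured activators of integrins and adaptors of their tails, 1 was higher and 3 were lower in NcstnKO GMP than in WT GMP (list median -0.11). Tln1, talin 1, the adaptor whose binding to the β tail opens the receptor, read 11.43, 11.42 and 11.25 in NcstnKO GMP and 11.76, 11.92 and 11.96 in WT GMP, without overlap (log2 fold change -0.51, SE 0.11, adjusted p 0.0381). The mean of all Tln1 probe sets went the other way, at 0.13, so the Tln1 value rests on its brightest probe set. With such means 3 of the 10 list genes called stayed so (Itgae 0.96, Parvb -0.54 and Thbs1 -0.85). The others were not called, among them Rapgef1 at -0.17, Skap2 at 0.24 and Tns1 at -0.63. With the replicate number as a block 2 of the 10 were called, Itgae and Parvb. Rapgef1, an exchange factor that loads RAP1, and Crkl, the adaptor that recruits it, differed by -0.37 (adjusted p 0.0308) and -0.49 (adjusted p 0.0428). Crkl was not called under either rescaling (adjusted p 0.0632 and 0.0511). Quantile normalization left 7 of the 10 called, as Tln1 (adjusted p 0.0531) and Emb, named below (adjusted p 0.0519), were lost too. Skap2, an adaptor that links immune receptors to integrin activation, was higher by 0.44 (adjusted p 0.0275), with 11.95, 12.03 and 12.14 in NcstnKO GMP against 11.63, 11.60 and 11.55 in WT GMP.

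Of 10 inactivators of integrins or RAP1, 1 was higher and 0 were lower in NcstnKO GMP (list median 0.19). It was Itgb1bp1, ICAP-1, which competes with talin for the β1 tail, at 11.12, 11.02 and 11.47 in NcstnKO GMP against 10.59, 10.63 and 10.62 in WT GMP (0.59, SE 0.14, adjusted p 0.0446). Of 24 outside-in signalling genes, 0 were higher and 2 lower (list median -0.14), Parvb, β-parvin of the ILK complex, by -1.08 (adjusted p 0.0194) and Tns1, the focal adhesion protein tensin 1, by -1.17 (adjusted p 0.0366). Tns1 was spread over 8.13, 7.46 and 6.95 in NcstnKO GMP and lay at 8.72, 8.73 and 8.59 in WT GMP.

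Of 15 other integrin subunits, 1 was higher and 0 were lower in NcstnKO GMP than in WT GMP (list median 0.09). Itgae, the αE chain that pairs with β7 for E-cadherin, read 6.70, 6.53 and 7.2 in NcstnKO GMP and 5.41, 5.14 and 5.80 in WT GMP, without overlap (1.36, SE 0.25, adjusted p 0.0275). Of 19 ligands 0 were higher and 1 lower, Thbs1, the matrix glycoprotein thrombospondin 1, by -1.49 (adjusted p 0.0356). Thbs1 read 5.22, 4.23 and 4.51 in NcstnKO GMP, near the background limits of 4.33, 4.38 and 4.57 on these arrays. With 16 added to the intensities before log2 its difference was -1.06 and was not called (adjusted p 0.0526). Of 15 other homing and adhesion receptors 0 were higher and 1 lower, Emb, embigin, an adhesion molecule of the immunoglobulin family found on progenitors, by -0.41 (adjusted p 0.0398). Of 12 lateral membrane partners, mostly tetraspanins, 0 were called by limma in either direction, and 4 had an unadjusted p under 0.05.

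Between WT GMP and WT LSK, 8 of the 113 were higher and 44 lower, where 38% of all genes were called, and the direction of this split turned with the scaling. It was 14 higher and 31 lower with quantile normalization and 36 higher and 26 lower with centring. Activators turned to 6 higher and 0 lower with centring, and outside-in genes to 11 higher and 6 lower. Counts per list below are those of the deposited values. The values of single genes that follow kept their sign and their call under both rescalings. Of the 15 other subunits 1 was higher and 6 lower: Itga1, the collagen receptor chain α1, was higher in WT GMP by 1.98 (adjusted p 0.00492), and Itgb2l, a β2-like subunit, was lower by -2.56 (adjusted p 0.00158). Of the 18 activators 2 were higher and 6 lower, with Rasgrp2, the calcium-responsive RAP1 exchange factor CalDAG-GEFI, higher by 0.86 (adjusted p 0.000867) and Tln2, talin 2, higher by 1.24 (adjusted p 0.00235). Of the 10 inactivators 0 were higher and 4 lower, among them Dok2, an adaptor of the DOK family, by -2.12 (adjusted p 0.000444).

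Of the 19 ligands and counter-receptors 2 were higher and 10 lower in WT GMP than in WT LSK. F11r, the junctional adhesion molecule JAM-A that αLβ2 binds, read 4.73 ± 0.31 in WT GMP and 8.43 ± 0.38 in WT LSK (SD, n = 3 each; -3.70, adjusted p 5.94e-05). Icam1, the ligand of αLβ2 and αMβ2, was lower by -1.37 (adjusted p 0.000553). Of the 24 outside-in genes 1 was higher and 7 lower, with the SRC family kinase Fgr at -2.30 (adjusted p 0.00179). Of the 12 membrane partners 0 were higher and 6 lower, with the tetraspanin Cd151, a partner of α6 and α3 integrins, at -0.99 (adjusted p 0.00208). Of the 15 other homing receptors 2 were higher and 5 lower, with Esam, an endothelial adhesion molecule also used to mark stem cells, at 5.14 ± 0.43 in WT GMP and 9.12 ± 0.27 in WT LSK (SD, n = 3 each; -3.98, adjusted p 1.67e-05).

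Between NcstnKO GMP and WT LSK, 11 of the 113 were higher and 53 lower, where 46.8% of all genes were called. The split was 23 higher and 43 lower with quantile normalization and 40 higher and 36 lower with centring. The 4 genes named next were called lower in all 3 scalings. Itgb3, the platelet and αv partner β3, was lower by -1.66 (adjusted p 0.000293), Vcl, vinculin, which reinforces the talin link to actin, by -0.73 (adjusted p 0.00049), and Fn1, fibronectin, by -2.50 (adjusted p 0.000206). Itga8 was at background in NcstnKO GMP and so was at least 1.39-fold lower than in WT LSK.

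**Figure D5:**
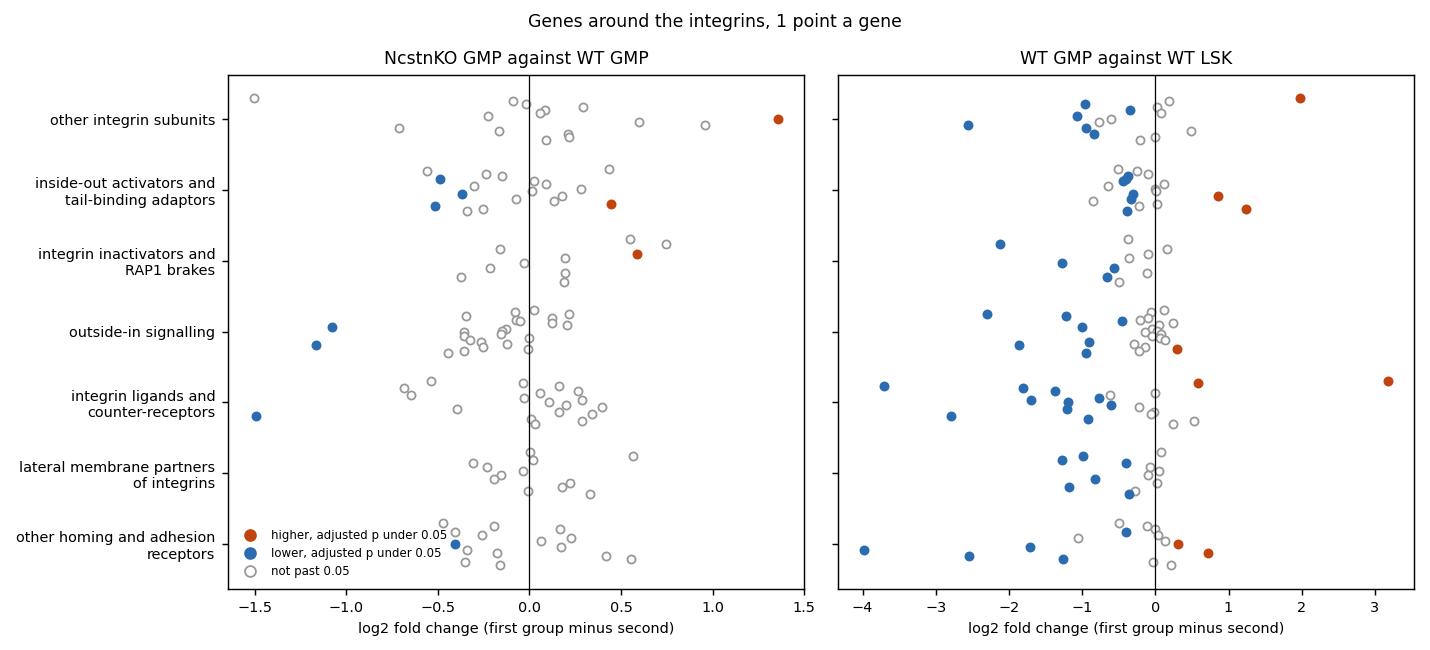
Log2 fold change of each measured gene (points) of the 7 lists around the integrins for NcstnKO GMP against WT GMP and for WT GMP against WT LSK, with called genes coloured by direction. The first comparison holds 3 higher and 7 lower genes of 113, and the second 8 higher and 44 lower.

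The patterns of the members over the 9 arrays were set against those of 8621 other genes above the median intensity. The nearest to Itga4 was Bcl2l11, which encodes the BCL2 family protein BIM (Pearson r 0.996 over 9 arrays). For Itgb2 it was Cd79b, a chain of the B cell receptor (r 0.985). The nearest to Itga9 was Kcnk5 (r 0.985) and the second nearest Cd79b (r 0.977). For Itgam the nearest was the chemokine gene Cxcl2 (r 0.972), for Itgb1 the GTPase gene Nras (r 0.973) and for Itgb7 Fhit (r 0.971). Itga5 was nearest to Atp1b2 (r 0.974), Itgal to Abr (r 0.987), Itgav to Pja2 (r 0.931) and Itga6 to Il15 (r 0.922). Among the members themselves, Itga9 with Itgb2 (r 0.950) and Itga4 with Itgal (r 0.912) were closest, and Itgb1 had values of -0.40 to 0.52 with the other members. These values are descriptions, since the 9 arrays fall into 3 groups and the genes were picked from many.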

How the data were processed

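Messenger RNA of sorted mouse bone marrow cells was measured on 9 Affymetrix arrays, 3 in each of 3 groups taken from the sample titles. The authors deposited 1 intensity for each probe set and array, on a linear scale as its range shows. The submitters' processing notes name RMA (background subtraction, quantile normalization and probe summary) with no version, and a joint normalization of the 9 arrays is not given in the sources used here. The number of arrays limits the precision.

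Log2 was taken of the intensities. Symbols came from GEO's platform annotation, and 34945 of the 45101 probe sets had 1 symbol, 932 several and 9160 none, beside 64 control probe sets. Entrez identifiers of 18031 of 18193 genes matched RefSeq. Each gene was read from its probe set with the highest mean over the 9 arrays. A model of 3 group means was fitted over all genes with 2-sided tests in limma 3.58.1 (lmFit, eBayes; R 4.3.3), and in a second fit over the 45037 non-control probe sets, with 6 residual degrees of freedom and Benjamini-Hochberg adjustment at 0.05. A group counted as at background where its mean, or each of its arrays, did not exceed the 95th percentile of 27 unspiked bacterial control probe sets, a limit taken from earlier work on these data. The fit was tested on simulated data with known changes.

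The members, the 7 lists, the marker lists and the tests were chosen with earlier results of these data known. The text names the 10 members and for each the nearest gene by Pearson correlation (among genes above the median, without predicted and sex-linked genes). For Itga9 the second nearest is named too. List genes named are among the 4 called genes of a list with the smallest p in a comparison. Not all of these are named, nor always the first. Those named between NcstnKO GMP and WT LSK are all lower, although 11 list genes were higher. Same-numbered WT GMP and WT LSK arrays deviated together from their group means (r 0.22, 0.24 and 0.29 across genes). The labels do not state this pairing, which was seen in the data. The highest value for another number was -0.08, but deviations from a group mean cancel out within the group, which lowers such values. NcstnKO GMP and WT GMP (r -0.09, 0.00 and 0.02) were not paired. Alternatives were another normalization, the mean of probe sets, fits of 2 groups, a replicate block, sex as a covariate, a filter on dim genes, an intensity trend, an offset of 16 before log2 and leaving out each array. 2 more, on the sex of the arrays, were chosen after seeing the data. Promoters are RefSeq's, GRCm38.p6, searched on both strands with Python 3.11.15.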

Additional observations from a re-analysis of the deposited data

How the results depend on the processing

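Between NcstnKO GMP and WT GMP, 1037 genes and 2 members were called. The counts were 549 genes and 1 member with the mean of all probe sets, 420 and 1 with every probe set tested alone, 6 and 0 in the fit of the 2 groups, 2 and 0 with either sex covariate, and 1574 and 2 without dim genes. The filter on dim genes took Itga9 and Itgam out of all 3 comparisons and left 8 members to test. Their absence from its counts, here and below, is not a lost call. Quantile normalization left 1 member. The replicate block gave 370 genes and 1 member, with Itga5 lost (adjusted p 0.0815), and changed no member's call in the other comparisons. Leaving out 1 array gave 2 to 845 genes, the lowest without WT GMP array 3, and 0 to 2 members, the 0 without NcstnKO GMP array 3 or WT GMP array 3. In the limma fits with 0 members called, 2 or 3 had an unadjusted p under 0.05. Without the 4 arrays whose sex labels disagree 1 gene and 0 members were called, and among arrays female by transcripts 0 genes (1669 at an unadjusted p under 0.05) and 0 members, where the lone array of a group is assumed to vary like the others.

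Between WT GMP and WT LSK, 6910 genes and 4 members were called, against 7 members with the mean of all probe sets, 3514 genes and 2 members without dim genes, 2383 genes without the arrays whose sex labels disagree, and 1076 genes and 1 member among arrays female by transcripts. Between NcstnKO GMP and WT LSK, 8523 genes and 6 members were called, against 5131 genes without dim genes, 3593 without the arrays whose sex labels disagree, and 3580 genes and 2 members among arrays female by transcripts.

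Among values called in either setting, the sign turned for Tln1 in NcstnKO GMP against WT GMP with the mean of probe sets (0.13). In WT GMP against WT LSK it turned for Itga4 (0.023), Itgav (0.31) and Rapgef1 (0.046) after centring and for Itga9 (0.0047) after quantile normalization, which also turned Itga9 in NcstnKO GMP against WT LSK (0.028). Signs of member values called in neither setting also turned: Itga5, Itgal and Itgav between WT GMP and WT LSK, Itga6, Itgav and Itgb1 between NcstnKO GMP and WT LSK, and Itga6, Itga9, Itgal, Itgam, Itgav and Itgb7 between the GMP groups. The cause was not tested. Signal near background limits Itgam and the 2 dimmer Itga9 probe sets in GMP. It also limits list genes, among them Thbs1 in NcstnKO GMP and F11r in WT GMP.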
